A study of Drosophila melanogaster with 24 samples.

Results

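Pdp1 and Clk are a pair of clock genes that lie near each other on chromosome arm 3L of Drosophila melanogaster. The stretch examined here runs from 7750000 to 7840000 on 3L in the dm3 build. The stretch was set with earlier results of these data known. Every peak of the 12 deposited lists whose midpoint fell in it was taken, whatever its score. This gave 240 of 58157 peaks from the stretch, 198 in tagged and 42 in mock lists. Within it the Clk span was taken as about 7756000 to 7769000 and the Pdp1 span as about 7818000 to 7840000. The Pdp1 span held 126 of the peaks, the Clk span 21, the stretch between the spans 90 and the stretch before Clk 3.

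The study mapped CLK and CYC on chromatin by immunoprecipitation with an antibody to the V5 tag, followed by sequencing (ChIP-seq). Flies of 6 groups gave peak lists, with 2 replicates each: CLK in heads, CYC in heads, mock in heads, CLK in bodies, CYC in bodies and mock in bodies. CLK and CYC lists came from flies of the strains labelled Clk and cyc, and the mock lists came from w- flies, which carry no V5 tag. All flies were adults aged 5 to 10 days, kept at 25 °C in 12 h of light and 12 h of darkness and frozen at ZT13, 1 h after lights-off. The labels do not say which promoter drives the tagged proteins or whether the untagged copies remain in the flies. Heads and bodies of many frozen flies were sieved apart and ground in bulk, so more bound cells and more binding per cell cannot be told apart. Heads were sonicated in 6 rounds and bodies in 4, so sonication cannot be told apart from tissue.

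CLK and CYC are transcription factors of the bHLH-PAS class that bind E-box elements as a pair and drive the fly clock. Pdp1 encodes PAR-domain protein 1, a basic leucine zipper factor and a known target of the pair in flies. One of its products, PDP1 epsilon, activates Clk, while VRILLE, the product of another target, represses Clk. Clk thus sits in a loop in which the pair acts on it through the products of its own targets.

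Each list gives 2 values per peak without a name. They are called the first and second score here, they have no stated scale, and ranks are by the first score, with 1 the best. A site is a run of peaks from the 8 tagged lists (CLK and CYC, head and body) that overlap by 1 bp or more. Lists held 73 to 13729 peaks, and the read depth behind them is unknown, and where a list has no peak it is only known that none was called. Head mock replicate 1 stood apart from the other mocks, with 12082 peaks, against 1726 in head mock replicate 2 and 73 and 175 in the body mocks. The V5 peaks could not be compared with the expression of any target gene, since no expression was measured.

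The peaks formed a steep cluster in the Pdp1 span, around a pair of sites with very high scores, while the Clk span held only scattered peaks of low score. The tagged peaks of the stretch fell into 64 sites, 24 in the Pdp1 span, 7 in the Clk span, 31 between them and 2 before Clk. In all, 7 sites had a peak in all 8 tagged lists, and all 7 lay in the Pdp1 span. Over the genome 0.794% of the regions of the tagged lists had a peak in all 8. Of 1309 tiles of 90 kb on the 5 main arms, 9.63% held at least 1 such region and 0.0764%, a single tile, held 7 or more. These shares are a description only, since the stretch was set with earlier results known. Whether that tile overlaps the stretch is not given here. A further 23 of the 64 sites were called in 1 tagged list only, against 50.4% of all regions.

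**Figure D1:**
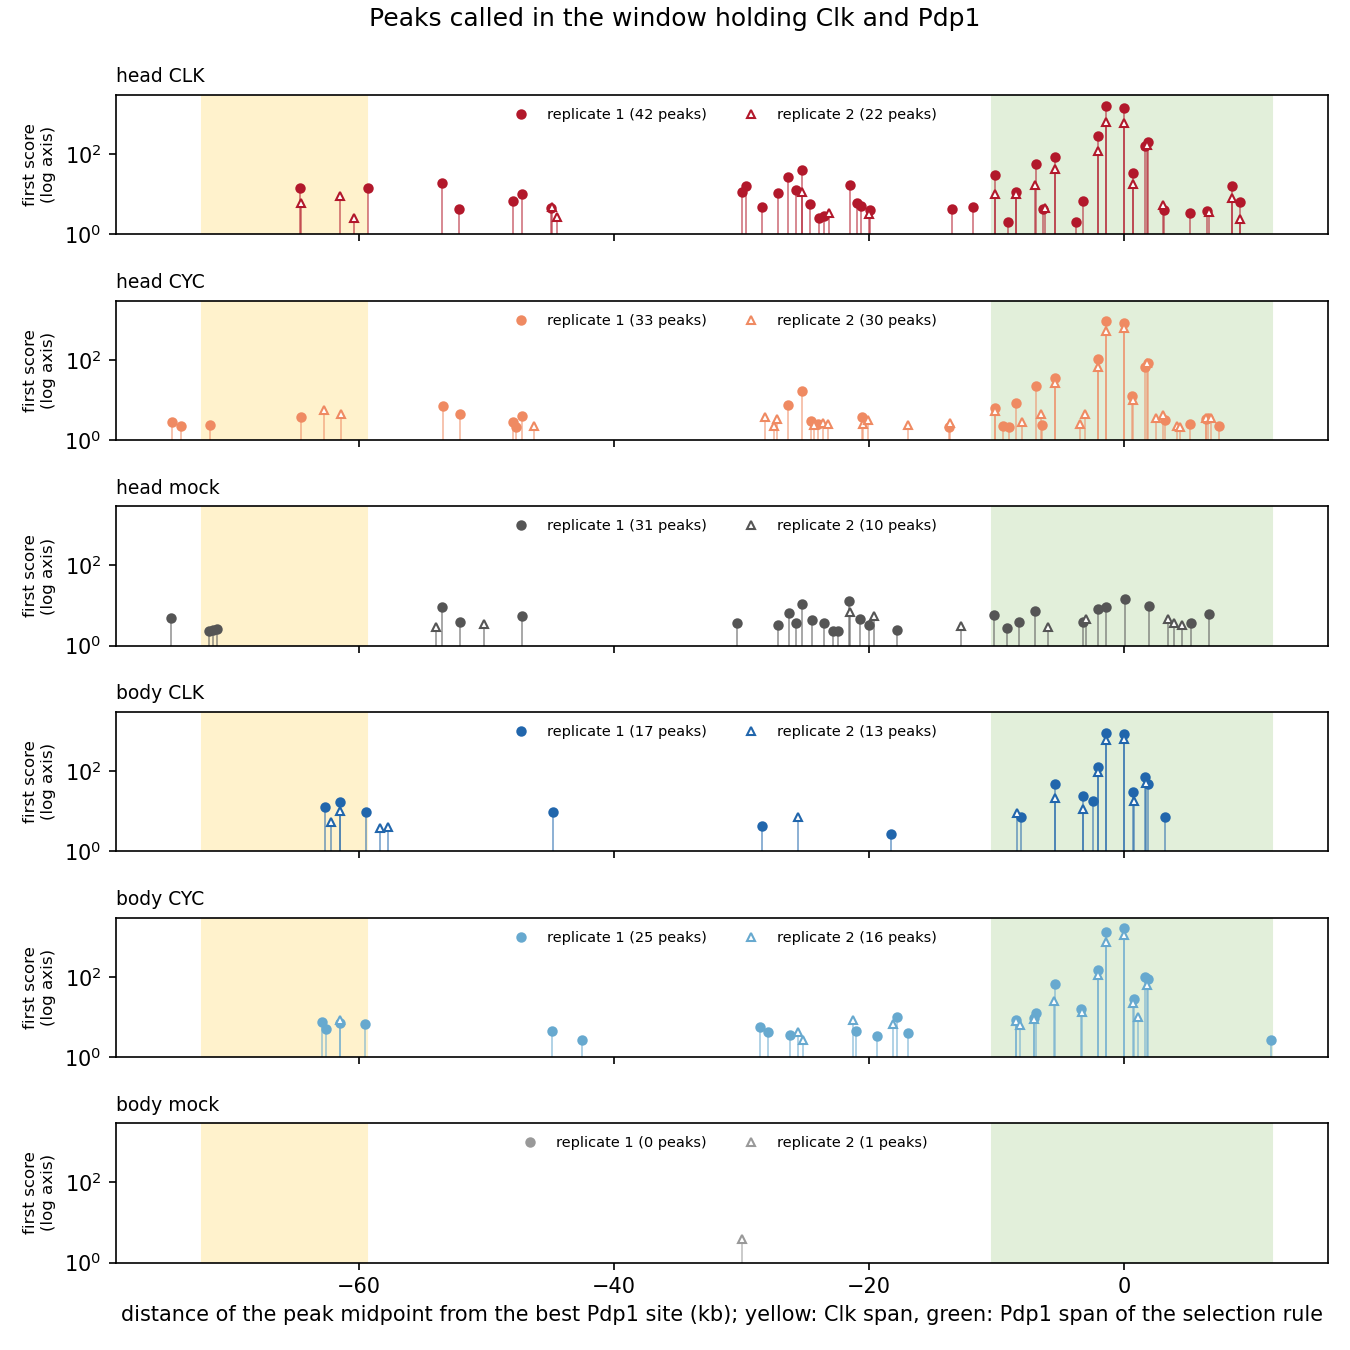
Each point is a called peak, placed by the distance of its midpoint from the best Pdp1 site (kb) and by its first score (log axis), with filled circles for replicate 1 and open triangles for replicate 2. In all 4 tagged panels the points climb to a pair of sites in the Pdp1 span (green), where scores reach 1622, while the highest tagged point in the Clk span (yellow) is at 17.1 and the body mock panel holds 1 peak.

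The best site, 3L 7828200 to 7828522, had the best mean rank of all regions shared by the 8 tagged lists (2.13). Its first score was 1393 and 614 in CLK heads, 819 and 612 in CYC heads, 820.2 and 635 in CLK bodies and 1622 and 1114 in CYC bodies. It ranked from 1 to 4 in every tagged list. Body CYC had the highest mean (1368 ± 359, SD, n = 2), followed by head CLK (1004 ± 551), body CLK (728 ± 131) and head CYC (716 ± 147). The replicates of neighbouring groups in this order overlapped, whereas both body CYC values lay above both body CLK values and above both head CYC values. A peak of head mock replicate 1 also lay there, with a first score of 14.3 and rank 196, and the tagged scores were 42.9 to 113.7 times that value. No other mock list had a peak at the site.

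The second site, 3L 7826767 to 7827090, lay 1.4 kb before the best one and was close to it in score. Its first score was 1572 and 639 in CLK heads, 952 and 531 in CYC heads, 892 and 593 in CLK bodies and 1281 and 739 in CYC bodies. Each of these values ranked between 1 and 4 in its list. The groups overlapped throughout, with means of 1105 ± 660 in CLK heads, 742 ± 298 in CYC heads, 742 ± 211 in CLK bodies and 1010 ± 383 in CYC bodies (SD, n = 2 each). Head mock replicate 1 had a peak of 8.98 there, at rank 831. The lower of the pair exceeded the next site of the span by 3.63 to 8.64 times in each tagged list. Of the 173 regions shared by the 8 lists, none outside the stretch had a better mean rank. By the second score the lead was lost: the best Pdp1 peak then ranked 101, 3, 16 and 29 in the head lists and 22, 6, 5 and 4 in the body lists.

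The next shared sites flanked this pair, and on the side towards Clk their scores were lower with distance. At 3L 7826152 to 7826481, 2.0 kb before the best site, the first score was 288 and 122 in CLK heads, 108 and 68.2 in CYC heads, 124 and 95.1 in CLK bodies and 148 and 108 in CYC bodies. At 3L 7822741 to 7823118, 5.4 kb before it, the values were 87.2 and 43.3 in CLK heads, 34.7 and 25.8 in CYC heads, 47.3 and 21.1 in CLK bodies and 66.7 and 24.3 in CYC bodies. The farthest shared site of the span, 3L 7819742 to 7820476, gave 2.82 to 11.6 over the 8 lists and ranked no better than 355. It joins neighbouring peaks whose midpoints differ between lists, from 7819867 to 7820329. In each of the 8 lists the score of these 3 sites was lower the farther the site lay from the pair.

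On the other side of the pair the order by distance was not kept. The site 3L 7828870 to 7829264, only 0.7 kb after the best one, gave 34.8 and 18.0 in CLK heads, 12.2 and 9.98 in CYC heads, 29.6 and 17.9 in CLK bodies and 27.9 and 21.9 in CYC bodies. The site 3L 7829861 to 7830372, 1.8 kb after it, gave 202 and 169 in CLK heads, 84.9 and 84.3 in CYC heads, 72.5 and 49.3 in CLK bodies and 99.1 and 62.7 in CYC bodies. It ranked from 13 to 45 in the 8 lists, whereas the nearer site ranked from 104 to 570. The 7 shared sites together covered 10.6 kb.

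**Figure D2:**
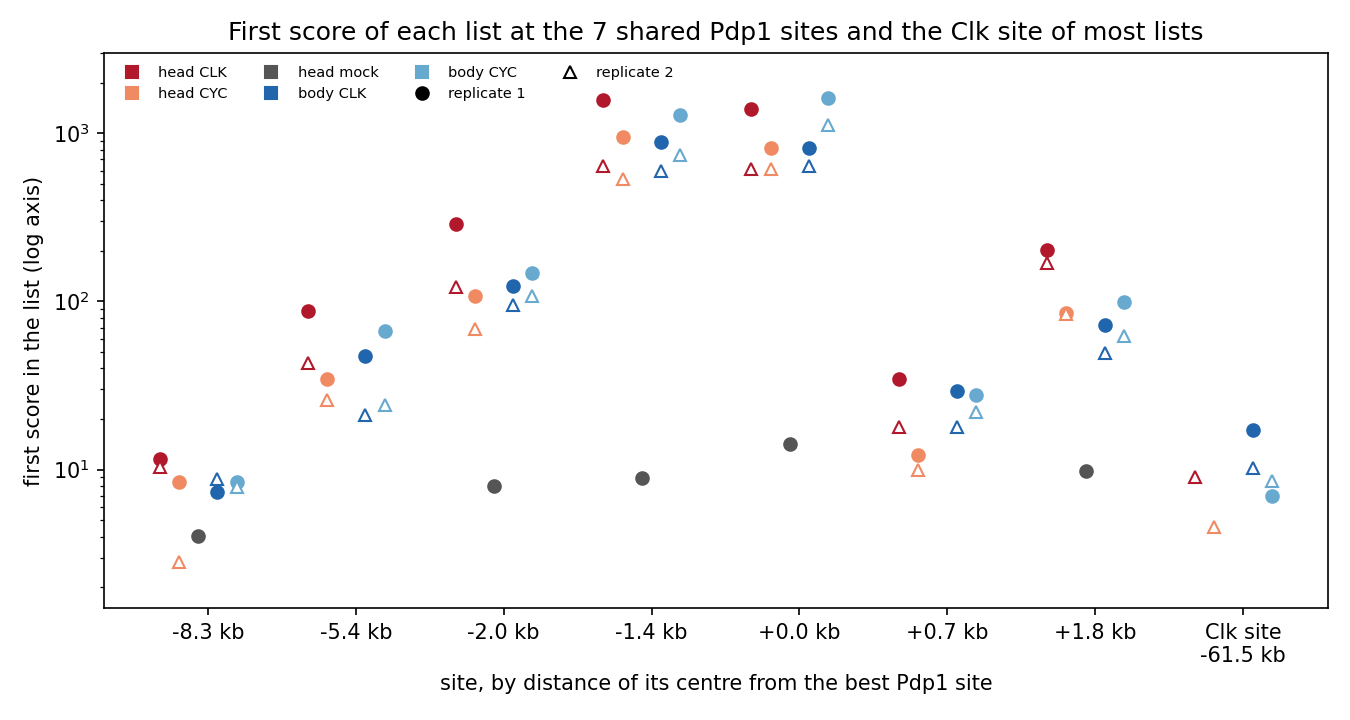
First score (log axis) in each list at the 7 shared Pdp1 sites and, at the right, the Clk site held by most lists, with sites named by the distance of their centre from the best site; filled circles are replicate 1 and open triangles replicate 2. The pair at -1.4 and 0 kb stands above all other sites in every tagged list, and the grey head mock replicate 1 points stay between 4.01 and 14.3.

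Mock peaks lay in the stretch mainly in heads, whose mock lists are also far longer. Head mock replicate 1 had 31, with a median first score of 4.01, head mock replicate 2 had 10, body mock replicate 1 had 0 and body mock replicate 2 had 1. As a share of their lists these were 0.257%, 0.579%, 0% and 0.571%. Of the 31, 27 overlapped a tagged site, and the highest, at 14.3, was the one at the best Pdp1 site. Of the 7 shared sites, 5 overlapped a peak of head mock replicate 1, against 39.9% of the 173 regions shared by all 8 lists over the genome. None of the 7 overlapped a peak of head mock replicate 2 or of either body mock. The sites 5.4 kb before and 0.7 kb after the best one were the shared sites without any mock peak. At the farthest shared site the mock score of 4.01 lay within the range of the tagged scores, which were 0.703 to 2.90 times that value. At the other 4 sites with a mock peak the tagged scores were 5.04 to 175 times the mock score.

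In the Pdp1 span tagged lists held more peaks than mock lists, although list length moved with this difference. They held 19 and 14 in CLK heads, 18 and 17 in CYC heads, 11 and 8 in CLK bodies and 12 and 11 in CYC bodies, against 11 and 5 in head mock and 0 and 0 in body mock. Every tagged list exceeded both mocks of its tissue. The difference was 2.29 on the scale log2(peaks + 1), or 4.90-fold in peaks + 1 (exact two-sided permutation test within tissue, n = 8 tagged and 4 mock lists, p = 0.004444, the lowest value possible with 225 arrangements). This value averages heads and bodies, and both body mock lists, which held 0 peaks in the span, had only 73 and 175 peaks in all. As a share of all peaks of a list, the span held 0.138% and 0.304% in CLK heads, 0.149% and 0.351% in CYC heads, 0.452% and 0.694% in CLK bodies and 0.302% and 0.862% in CYC bodies, against 0.091% and 0.290% in head mock and 0% in both body mocks. In shares the head lists overlapped: head mock replicate 2 lay above replicate 1 of head CLK and of head CYC. The mean difference in share was 0.311 percentage points (exact permutation p = 0.04, higher than the mean mock share of their tissue in 6 of 8 tagged lists). A single peak in the body mock list of 175 peaks would be 0.571% of it. The body mock shares of 0% thus still depend on list length, and the share test does not remove it. With each head list shortened to 1153 peaks, tagged lists held 9, 7, 9 and 9 and mock lists 4 and 5.

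Over the whole stretch the tagged lists held 42 and 22 peaks in CLK heads, 33 and 30 in CYC heads, 17 and 13 in CLK bodies and 25 and 16 in CYC bodies, against 31 and 10 in head mock and 0 and 1 in body mock. That difference was 2.23, or 4.69-fold in peaks + 1 (exact permutation p = 0.01333), and it was 1.70-fold in heads and 12.9-fold in bodies. Among head lists of replicate 1 it was 1.19-fold and among those of replicate 2 it was 2.43-fold. As a share of each list the difference did not pass the test, at 0.321 percentage points (exact permutation p = 0.12). The tagged shares were 0.306% and 0.477% in CLK heads, 0.273% and 0.619% in CYC heads, 0.699% and 1.13% in CLK bodies and 0.630% and 1.25% in CYC bodies, so they overlapped the mock shares in heads.

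The Clk span differed from the Pdp1 span in every tagged list. The Pdp1 span held 6.25 ± 1.78 peaks per 10 kb and the Clk span 1.73 ± 0.796 (SD, n = 8 lists), a mean difference of 4.52 (exact two-sided sign-flip test over the 8 lists, p = 0.007812, the smallest that 256 arrangements allow). The stretch between the spans held 1.73 ± 1.31 and the 5 main arms 0.446 ± 0.378. By tissue, the Clk span held 1.54 ± 0.628 in heads and 1.92 ± 0.993 in bodies, and the stretch between the spans 2.50 ± 1.45 in heads and 0.969 ± 0.586 in bodies (SD, n = 4 each). In head CLK replicate 1 the Clk span, with 1 peak, lay below the arms, with 0.769 against 1.12 peaks per 10 kb. Both genes were read from the same list, so list length enters both sides. The head mock lists also held more peaks per 10 kb in the Pdp1 span than in the Clk span. Their values were 5.00 against 2.31 in replicate 1 and 2.27 against 0 in replicate 2. The contrast in peak density was thus not particular to tagged lists. The body mock lists had no peak in either span. The pair of genes and their contrast were set with earlier results for this stretch known.

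**Figure D3:**
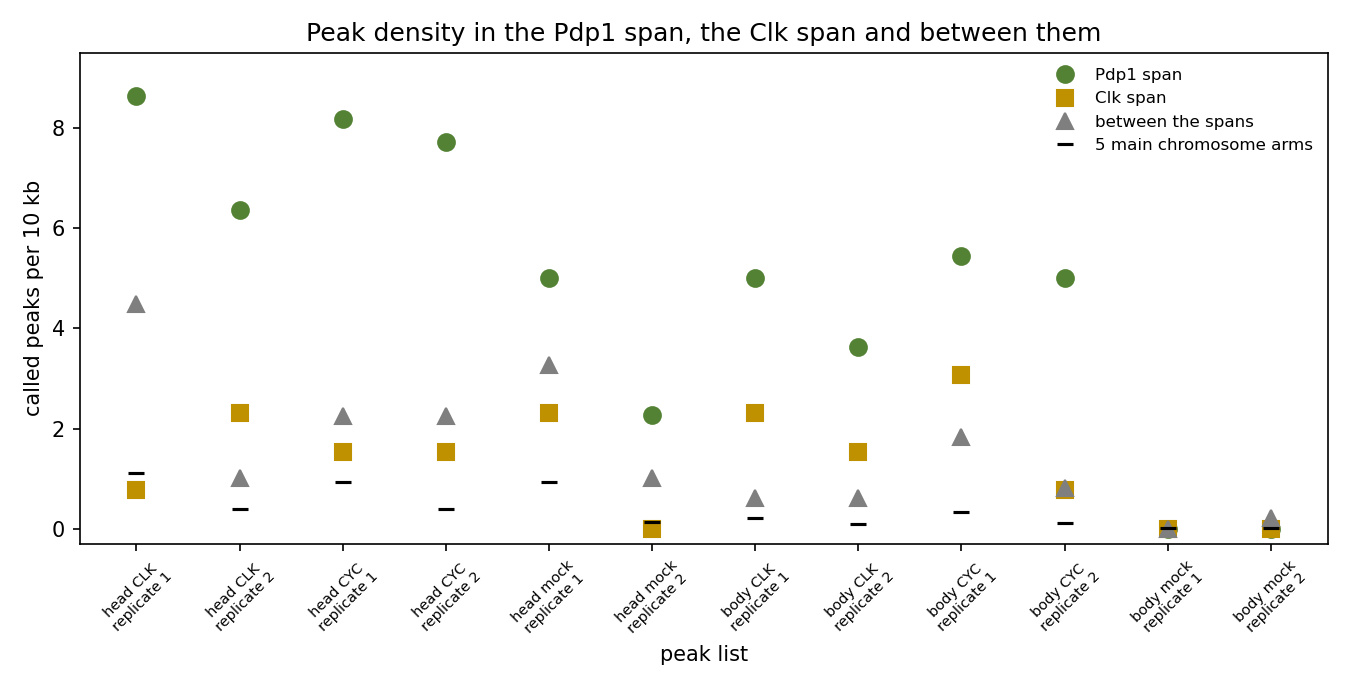
Called peaks per 10 kb in each of the 12 lists, for the Pdp1 span (circles), the Clk span (squares), the stretch between them (triangles) and the 5 main chromosome arms (dashes). In all 8 tagged lists the Pdp1 value, from 3.64 to 8.64, lies above the Clk value, from 0.769 to 3.08. Both head mock lists also have the higher value in the Pdp1 span.

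In score the genes lay much farther apart than in peak number. The best Pdp1 peak had a first score of 1572 and 639 in CLK heads, 952 and 612 in CYC heads, 892 and 635 in CLK bodies and 1622 and 1114 in CYC bodies. The best Clk peak had 14.6 and 9.05 in CLK heads, 3.78 and 5.57 in CYC heads, 17.1 and 10.3 in CLK bodies and 7.38 and 8.58 in CYC bodies. The mean difference was 6.76 on the log2 scale (exact sign-flip p = 0.007812, Pdp1 higher in 8 of 8 lists), and the ratio ran from 52.1 in body CLK replicate 1 to 252 in head CYC replicate 1. By the second score, whose scale may differ, the log2 difference was 4.64. Each tagged list had 4 to 6 Pdp1 peaks among its best 100 and no Clk peak, the best Clk rank being 277. The best Clk peak of each list stood at 13.2% to 42.2% of the list from the top.

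Clk encodes one partner of the CLK and CYC pair itself, and 1 of its 7 sites was called in most lists. That site, 3L 7766675 to 7767054, had 9.05 in head CLK replicate 2, 4.59 in head CYC replicate 2, 17.1 and 10.3 in CLK bodies and 6.95 and 8.58 in CYC bodies. It was thus called in all 4 tagged body lists and in both head lists of replicate 2, but in neither head list of replicate 1, which are the longest lists. Of the 304 regions called in each of the 4 tagged body lists, 1.32% showed this pattern and 56.9% were also in all 4 tagged head lists. The midpoints of the 6 peaks ran from 7766816 to 7766907. No mock list had a peak there. It lay 61.5 kb from the best Pdp1 site.

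Other Clk sites were held by 1 to 3 lists. The site 3L 7763615 to 7763967 was called in heads only, at 14.6 and 5.95 in CLK heads and 3.78 in head CYC replicate 1. The site 3L 7765325 to 7765833 had 5.57 in head CYC replicate 2, 13.1 in body CLK replicate 1 and 7.38 in body CYC replicate 1. The site with the best mean rank of the Clk span, 3L 7766004 to 7766312, rested on a single peak of 5.27 at rank 714 in body CLK replicate 2. Of the 7 Clk sites, 6 had no mock peak. The exception, 3L 7756537 to 7756793, was called in head CYC replicate 1 at 2.43 and overlapped peaks of head mock replicate 1.

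Counted by peaks, the Clk span was barely set apart from the mock lists. It held 1 and 3 peaks in CLK heads, 2 and 2 in CYC heads, 3 and 2 in CLK bodies and 4 and 1 in CYC bodies, against 3 and 0 in head mock and 0 and 0 in body mock. The log2 difference was 1.13 (exact permutation p = 0.03556). It was 0.63 without head mock replicate 2 (exact permutation p = 0.2267) and 0.77 with the longer lists shortened to 1153 peaks (exact permutation p = 0.2), where the body mock lists kept their 73 and 175 peaks. As a share of each list, the mean difference was 0.0696 percentage points (exact permutation p = 0.02222). In heads the shares overlapped, at 0.007% and 0.065% in CLK and 0.017% and 0.041% in CYC, against 0.025% and 0% in mock. With 73 and 175 peaks, the body mock lists can show a share as low as the tagged ones only as 0%. The share test thus cannot tell a tagged excess from short mock lists. The exact permutation p was also above 0.05, at 0.06667, without any 1 of 8 lists: either head CYC, either body CLK or either body mock list, replicate 2 of head CLK, and replicate 1 of body CYC.

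Between the spans, where the RefSeq table for Release 6 of the genome orders the genes Clk, CG32371, CG32369 and Pdp1, the tagged peaks were many and low. Their first scores had a median of 4.25, against 6.95 at the Clk sites and 17.6 in the Pdp1 span. None of the 31 sites was in more than 4 tagged lists, and 15 of them overlapped a mock peak, against 41.6% of all regions. The best of them, 3L 7802958 to 7803330, gave 39.4 and 11.3 in CLK heads, 16.7 in head CYC replicate 1 and 2.58 in body CYC replicate 2, and 10.7 in head mock replicate 1. In that table Pdp1 is longer than the span used here, so some of these peaks, and peaks after the stretch, may lie in the gene.

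The number of peaks in the Pdp1 span was larger in the head lists as deposited, but not at equal list length, and neither difference passed the test. Heads held 19, 14, 18 and 17 and bodies 11, 8, 12 and 11, so the groups did not overlap. The difference was 0.65 on the scale log2(peaks + 1), or 1.57-fold in peaks + 1 (exact two-sided permutation test within factor, n = 4 lists each, p = 0.05556, the lowest value possible with 36 arrangements). Head lists were longer throughout. With each tagged list shortened to its 1153 best peaks, heads held 9, 7, 9 and 9 and bodies 9, 8, 10 and 11, and the log2 difference was -0.14 (exact permutation p = 0.2778). Among peaks at or above the median first score it was 0.20 (exact permutation p = 0.6111).

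Beside the 7 shared sites the Pdp1 span held 17 others with 49 tagged peaks, whose first scores ran from 2.09 to 56.3 with a median of 4.37. Of all 24 sites of the span, 11 were called in heads only, 3 in bodies only and 7 in a single list, and 14 overlapped a mock peak. Over the genome 75.3% of the regions of the tagged lists were called in heads only, 13.5% in bodies only and 50.4% in a single list, and 41.6% overlapped a mock peak. The highest score among these others was at 3L 7821149 to 7821588, with 56.3 and 17.4 in CLK heads, 22.1 in head CYC replicate 1 and 12.6 and 9.02 in CYC bodies, against 7.19 in head mock replicate 1. No body CLK list had a peak there.

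A set of 3 Pdp1 sites was called in all 4 tagged head lists and in no tagged body list, a pattern shown by 3.67% of the regions of the tagged lists. They were 3L 7818052 to 7818380, with first scores of 5.34 to 30.9, 3L 7821733 to 7822359, with 2.32 to 4.52, and 3L 7834659 to 7835365, with 3.45 to 3.94. Each overlapped a peak of 1 head mock list. At the second site the mock score, 2.95 in head mock replicate 2, lay within the range of the tagged scores. At the third it was 6.16 in head mock replicate 1, above all 4 tagged head scores. The first had 30.9 and 10.5 in CLK heads and 6.22 and 5.34 in CYC heads, against 5.67 in head mock replicate 1, so both head CYC values lay near the mock value. The site 3L 7824488 to 7825464 went the other way: it had 6.72 in head CLK replicate 1 and 4.45 in head CYC replicate 2, against 23.3 and 11.7 in CLK bodies and 16.0 and 13.2 in CYC bodies. Head mock peaks of 3.90 and 4.62 overlapped it as well.

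At the 7 shared sites no difference in first score between heads and bodies was detected. Head minus body ran from -0.52 on the log2 scale at the site 0.7 kb after the best one to 0.87 at the site 1.8 kb after it, with a median of 0.00. Where a list had more than 1 peak in a site, the highest was used. At the site of 0.87, the replicate 1 lists thus compare different peaks, with midpoints of 7830245 and 7830222 in heads and 7829982 and 7829975 in bodies. Over the 173 shared regions of the genome the median was 0.14. The lowest exact permutation p among the 7 was 0.1667 (adjusted over all 173 regions, 0.406). In 0 of the 7 did the 4 head values all lie above the 4 body values, or all below, against 7.51% and 4.62% of the shared regions. No shared region of the genome could pass an adjusted p of 0.05 in a design of 36 arrangements (0 of 173, 0%), and 17.3% had the smallest unadjusted p. The best and second sites differed by -0.28 and 0.00. With each score set against the median of its list, the best site turned to 0.46 and the second site stood at 0.75.

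CLK and CYC also overlapped in score at the shared sites when both tissues were pooled. CLK minus CYC ran from -0.26 at the best site to 0.58 at the farthest site, with a median of 0.37, which is also the median of the 173 shared regions. The lowest exact permutation p was 0.2222 (adjusted over all 173 regions, 0.582). None of the 173 had an adjusted p of 0.05 or below (0%), and 9.25% had the smallest unadjusted p. These signs depend on the scale, and with the list median removed 4 of the 7 sites turned negative, the second site among them.

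Within heads CLK scored above CYC at 5 of the 7 sites, with both CLK values above both CYC values. Over the genome this held at 75.1% of the shared regions, and the reverse at 1.73%. The 2 sites without such a gap were the best and the second. Within bodies both CYC values lay above both CLK values at 1 of the 7 sites, the best one, against 33.5% of the shared regions, and both CLK values above both CYC values at 0 of 7, against 7.51%. The factor difference in heads exceeded that in bodies at all 7 sites, by 0.91 to 1.53 on the log2 scale, and the median over all 173 shared regions was 1.44. None of the 7 differences could pass 0.05 with 36 arrangements (lowest exact permutation p = 0.1111, factors permuted within tissue). Such permutation asks about any factor difference within a tissue, so it cannot decide whether that difference is unlike in heads and bodies.

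The balance between the best and the second site was compared as a ratio within each list, which a constant factor between lists cannot change. The ratio of the best to the second site was 0.887 and 0.961 in CLK heads, 0.860 and 1.15 in CYC heads, 0.920 and 1.07 in CLK bodies and 1.27 and 1.51 in CYC bodies. Both body CYC values were the highest of the 8. On the log2 scale the mean was -0.06 ± 0.19 in heads and 0.23 ± 0.31 in bodies (SD, n = 4 each), a difference of -0.29 (exact permutation p = 0.1111). Between the factors the difference, CLK minus CYC, was also -0.29 (exact permutation p = 0.1667).

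The distance between the midpoints of the pair was nearly constant from list to list. It was 1430 and 1433 bp in CLK heads, 1435 and 1437 bp in CYC heads, 1417 and 1423 bp in CLK bodies and 1426 and 1411 bp in CYC bodies. The 4 head values all lay above the 4 body values. The means were 1434 ± 2.99 bp in heads and 1419 ± 6.65 bp in bodies (SD, n = 4 each), and the difference of 14.5 bp gave an exact permutation p of 0.05556, the smallest possible here. This measure was chosen after the midpoints had been seen. All 12 lists have a fixed peak width of their own, from 228 to 322 bp in the tagged ones, and the part of sonication in the distance was not tested.

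**Figure D4:**
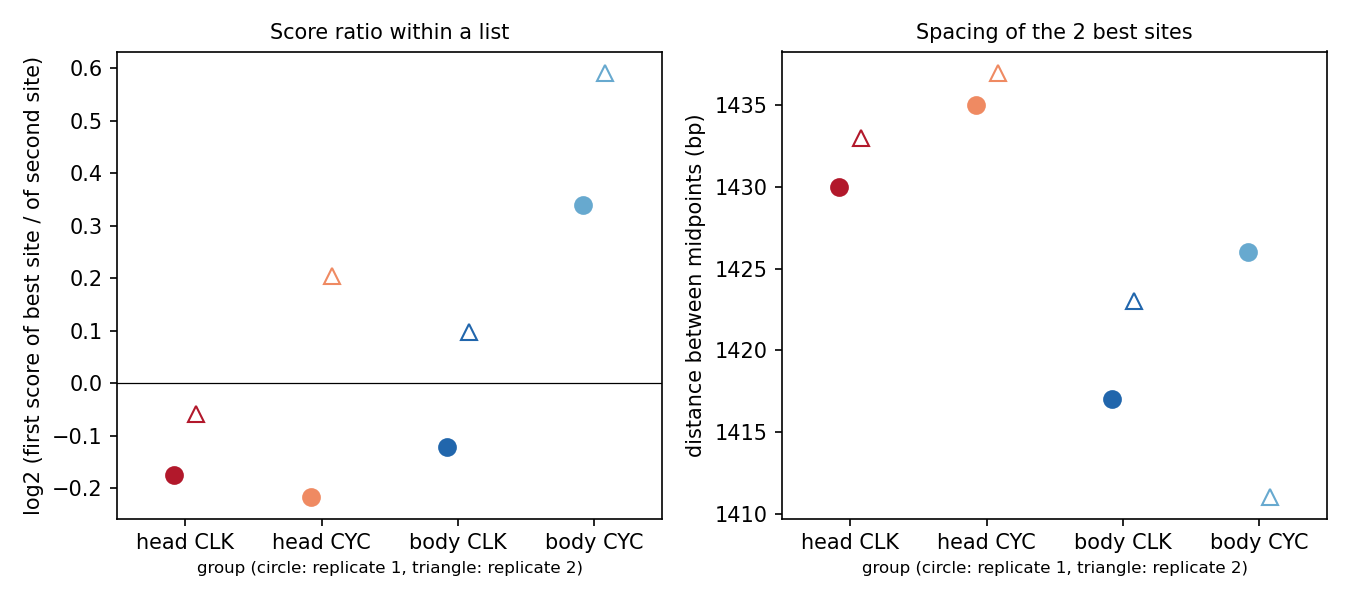
Left, log2 ratio of the first score of the best to that of the second Pdp1 site within each list; right, distance between the midpoints of the 2 sites (bp, axis not from 0); circles are replicate 1 and triangles replicate 2. Body CYC has the highest ratios, 1.27 and 1.51, and the 4 head distances, 1430 to 1437 bp, lie above the 4 body distances, 1411 to 1426 bp.

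The regions whose first score moved most like that of the best Pdp1 site over the 8 tagged lists were themselves mostly leading regions. They were 2L 3507238 to 3507569 (Pearson r = 0.984), 2L 5303180 to 5303504 (r = 0.899) and 2L 2751075 to 2751891 (r = 0.894), each over 8 lists. The first and the second of them had mean ranks of 2.63 and 3.38, and the third 172. The lists share a depth and a scale of score across regions, so these values describe the lists and carry no test.

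At the edges of the stretch the first peak inside was at 7753584, with a first score of 5.00 in head mock replicate 1, and the last peak outside before it was at 7746413, with 2.21 in head mock replicate 2. At the far edge the last peak inside was at 7839893, with 2.65 in body CYC replicate 1, and the first outside was at 7840219, with 2.50 in head mock replicate 2.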

How the data were processed

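The analysis used 12 lists of ChIP-seq peaks, 1 for each pull-down library. Reads were mapped with Bowtie 0.12.7 to dm3, per the submitters' processing notes. The peak caller is not given in the sources used here. The deposited lists give 2 unnamed values per peak, each treated as a score in the authors' unit, all at 2 or above. Their names pair each pull-down with its own input, and replicates were not pooled. The lists hold no read counts, so depth is unknown. Coordinates are printed as deposited.

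Members were all peaks with a midpoint in the stretch. The members, gene spans, lists and tests were chosen with earlier results of these data known. Named sites are those in all 8 tagged lists, the best of each gene, and further ones with a mock peak. The last were too many to give in full, so counts, ranges and examples stand for them. Tied peaks share the best rank. The tagged against mock tests within each gene span, the distance between the best pair and the other examples of single sites were chosen after the values had been seen. Group differences were tested by exact permutation, and Pdp1 against Clk by exact sign-flip. Site tests were run on all 173 shared regions with Benjamini-Hochberg adjustment over them. Nothing says that replicates came from separate cultures beyond the study's own description of them as independent, so p-values measure the spread between these lists. Merging and the head and body contrast were tested on simulated lists, where 200 of 200 planted regions were recovered. A log2 difference of 2, planted in part of them, came out at a median of 2.04. The planted regions lay farther apart than the shared sites here, where the smallest gap was 286 bp, so merging of sites this close was not tested. Python 3.11.15, numpy 2.4.6, scipy 1.17.1 and matplotlib 3.10.9 were used. No dm3 sequence was used here.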

Additional observations from a re-analysis of the deposited data

Results flagged for a closer look

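Within the shared site 3L 7829861 to 7830372, the 4 tagged lists of replicate 1 hold a pair of peaks, and which of them was higher differed between tissues. The peak nearer to the best site (midpoints 7829975 to 7830019) and the farther peak (midpoints 7830222 to 7830245) had first scores of 159 and 202 in CLK heads, 65.4 and 84.9 in CYC heads, 72.5 and 46.4 in CLK bodies and 99.1 and 86.0 in CYC bodies. The log2 ratio of the farther to the nearer peak was 0.34 and 0.38 in the heads and -0.64 and -0.20 in the bodies, a difference of 0.78. It was marked because both head lists went one way and both body lists the other, and the difference was not tested. The replicate 2 lists, with wider peaks of 294 to 322 bp, have a single peak at the site, with midpoints of 7830194 and 7830198 in heads and 7830096 and 7830165 in bodies.

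After the stretch lie 2 more regions called in each of the 8 tagged lists and in no mock list. They are among the 173 regions shared by the 8 lists, and their own values were not given above. At 3L 7860081 to 7860807 the first score was 26.9 and 45.5 in CLK heads, 6.34 and 10.2 in CYC heads, 60.2 and 29.0 in CLK bodies and 27.7 and 25.6 in CYC bodies. Its highest value was 60.2, at rank 37. At 3L 7849299 to 7849941 the values were 10.6 and 10.4 in CLK heads, 6.68 and 8.82 in CYC heads, 13.9 and 13.1 in CLK bodies and 17.0 and 16.7 in CYC bodies. The highest was 17.0. The 4 head values thus lay below the 4 body values, as in 4.62% of the 173 shared regions. The 30 kb after the stretch held 12 to 14 peaks in each tagged head list and 8 to 12 in each tagged body list, against 5 and 5 in head mock and 0 and 0 in body mock. These regions were named after their values had been seen.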

How the results depend on the processing

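The excess of Pdp1 over Clk kept its direction and its side of 0.05 under all 11 alternatives in peak density and all 11 in best score, as did the excess of tagged over mock peaks in the Pdp1 span under 16. In the stretch that excess held under 15 of 16, but not as a share of each list, in percentage points (0.321, exact permutation p = 0.12), an alternative chosen after seeing the data. Without single lists these values ran from 4.04 to 4.87, from 6.59 to 6.91, from 2.04 to 2.54 and from 1.84 to 2.61. For the Clk span, tagged minus mock ran from 0.63 to 1.63, with 10 of 16 alternatives above 0.05, among them lists shortened to 1153 peaks (0.77), which leaves the body mock lists at 73 and 175. Head minus body in the log2 ratio of the best pair ran from -0.39 to -0.18. Head minus body in Pdp1 peaks turned to -0.14 at equal length and ran from 0.55 to 0.76 without single lists. It was 0.20 among peaks at or above the median first score.

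Of 180 alternatives to the site contrasts 36 changed sign, and the cause was not tested. With at most 36 arrangements none of these tests could pass 0.05, so their p-values say nothing about stability. In percentile points, head minus body turned to 11.5 (farthest site), 0.021 (best) and 0.063 (0.7 kb after), and CLK minus CYC to -0.43 (farthest), -0.64 (5.4 kb before), -0.019 (2.0 kb before), 0.0089 (best), -2.19 (0.7 kb after) and -0.082 (1.8 kb after). With list medians removed, head minus body turned to 0.59, 0.46 and 0.22 at the farthest, best and 0.7 kb sites, and CLK minus CYC to -0.12, -0.0100, -0.42 and -0.10 at those 5.4, 2.0 and 1.4 kb before and 1.8 kb after. By the second score, head minus body turned to 0.0078 at the best site, and CLK minus CYC to -0.20, -0.37 and -0.12 at the farthest, second and 1.8 kb sites. Without single lists, head minus body ran from -0.55 to 0.24 (farthest), -0.10 to 0.63 (5.4 kb before), -0.20 to 0.42 (2.0 kb before), -0.32 to 0.33 (second) and -0.58 to 0.012 (best). CLK minus CYC ran from -0.019 to 0.71 (5.4 kb before), -0.29 to 0.36 (second) and -0.55 to 0.040 (best). By the second score the best Pdp1 peak ranked 101, 3, 16 and 29 in the tagged head lists and 22, 6, 5 and 4 in the tagged body lists.

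Replicate numbers were not shown to pair the lists, and the labels do not say that they do. Replicate 1 lists were nonetheless longer than replicate 2 lists in every group but body mock. In the tagged groups the peaks of replicate 1 were also narrower. Whether replicate numbers mark shared batches was not tested. The correlation of replicate 1 minus replicate 2 over the 173 shared regions was 0.62 between head CLK and head CYC and 0.07 between body CLK and body CYC. Between a head and a body group it ran from -0.17 to 0.14, so the head pair stood apart. With a replicate block, tagged minus mock stayed at 2.23 (exact permutation p = 0.01235), and no call changed. Merging by midpoints within 150 bp gave no value for the farthest site, whose peaks then fall apart.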
